A study of Lolium arundinaceum with 6 samples.

Results

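Circadian clock genes of tall fescue, a cool season grass, were followed in leaf RNA through 4 unigenes, the assembled transcript clusters that stand for genes here. Unigene c155757_g1 carries the name LHY, c153713_g1 and c142108_g1 carry the name GI, and c150815_g1 carries the name FKF1. They are 4 of 179680 unigenes in the count table, and all 4 were among the 28005 that passed the filter on low counts. They were picked for their names and with their levels in these same libraries known, so the values below describe them and no p-value is given for them.

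The seedlings were of the variety Fire Phoenix II, with a wild-type genotype, and were 10 days old. Leaves were taken from control plants, labelled 0 h, and from plants after 2 h and after 12 h at 38 °C. Each of the 3 groups has 2 biological replicates, which makes 6 libraries. The same control libraries serve both heat times. No control library is labelled with a later time, whereas headings in a supplementary table of the study name a control for each heat time. By the labels, hours of heat and hours passed since the controls were taken cannot be told apart, and the clock time of sampling is not given in the sources used here.

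In Arabidopsis the clock is a loop of genes that hold each other's transcripts to set times of day. LHY encodes a MYB transcription factor that peaks around dawn and represses genes of the evening. GI, or GIGANTEA, is one of these evening genes and encodes a large plant-specific protein. FKF1 encodes an F-box protein with a blue-light-sensing LOV domain and kelch repeats, which pairs with GI in the afternoon of long days to remove repressors of flowering. The transcripts of these genes therefore move with the time of day in plants that are not heated.

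The names are those of the best Arabidopsis matches, and they are not equally firm. The matches of FKF1 and of GI c153713_g1 were strong, and the rice match of each bears a related name. GI c142108_g1 had a weak match, and both GI unigenes matched the same rice GIGANTEA gene. The match of the LHY unigene was weak, and its rice match is described only as a MYB transcription factor. Matches within a gene family, or pieces of one gene, could share reads between unigenes.

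Depth and the general state of the libraries bear on every value. The libraries held 6349776 to 7891567 counts, so that 3 counts correspond to 0.359 to 0.508 CPM, the usual scaling of counts by library size. The labelled heat was visible in the summed level of HSC70-1 and HSP21, a cytosolic and a plastid chaperone, at 18991 to 19509 CPM after 2 h and 27436 to 28025 CPM after 12 h, against 474 to 487 CPM in controls. Of 4 unigenes fixed as leaf markers, all photosystem subunits, 3 were detected in every library and PSAK c178872_g1 was at 0 in 3 libraries. Their sum was 7139 to 9032 CPM after 2 h and 4082 to 4239 CPM after 12 h, against 12483 to 12632 CPM in controls. PSAK c178872_g1, a small part of that sum, was higher at 12 h. It averaged 3.77 CPM there (46 counts in all), against 0.0653 CPM in controls (1 count in all). The sum of 3 markers of other tissues (root-type ferredoxin reductase RFNR2, the xylem protease XCP2 and a seed-type LEA protein) was 78.7 to 87.9 CPM after 2 h and 26.9 to 29.5 CPM after 12 h, against 95.9 to 101 CPM in controls, with none at 0. Within that sum XCP2 went the other way at 12 h, with 5.93 and 8.36 CPM, against 3.22 and 3.92 CPM in controls. In bulk leaf RNA, fewer cells of a type and less RNA per cell cannot be told apart. Replicates were least alike after 2 h of heat. Over 9108 unigenes of at least 10 CPM, the log2 values of replicate 1 and replicate 2 differed with an SD of 0.226 in controls, 0.484 after 2 h and 0.230 after 12 h.

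The LHY unigene was lower after heat, most of all after 12 h. Scaled by TMM, it stood at 9.50 and 9.93 CPM in the controls, 7.17 and 5.78 CPM after 2 h and 1.69 and 1.98 CPM after 12 h. The 3 groups did not overlap, and the order of their levels ran down with hours of heat. The log2 fold change was -0.58 (SE 0.27) at 2 h and -2.39 (SE 0.33) at 12 h, and -1.81 (SE 0.34) between 12 h and 2 h. In summed counts the level after 12 h was 0.189 of that in controls, with a 95% counting interval of 0.116 to 0.296. The counts behind these levels were small, at 10 and 13 in the libraries of 12 h, against 59 and 76 in the controls. Counting intervals here cover counting error only, not the spread between plants.

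The better-matched GI unigene, c153713_g1, moved in opposite directions at the 2 times. It stood at 63.3 and 81.3 CPM in the controls, 37.3 and 51.4 CPM after 2 h and 195 and 212 CPM after 12 h. Both libraries of 2 h were below both controls, and both libraries of 12 h were above them. The controls themselves lay apart, as their 95% counting intervals, 57.2 to 69.9 and 75.0 to 87.9 CPM, did not meet. The log2 fold change was -0.71 (SE 0.19) at 2 h and 1.49 (SE 0.19) at 12 h. Between 12 h and 2 h it was 2.20 (SE 0.19), or 4.64-fold in summed counts (95% counting interval 4.26 to 5.05).

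The second GI unigene, c142108_g1, followed the LHY unigene rather than the other GI unigene in its order of levels. It stood at 1.77 and 3.53 CPM in the controls, 2.63 and 1.88 CPM after 2 h and 0.847 and 0.608 CPM after 12 h. The 2 h libraries lay between the controls, so that these neighbours in the order did not differ beyond their spread. Both libraries of 12 h were lower, with 5 and 4 counts, against 11 and 27 counts in the controls. The log2 fold change was -0.25 (SE 0.46) at 2 h and -1.88 (SE 0.57) at 12 h. Without control replicate 2 these values were 0.33 and -1.27, so the direction at 2 h depends on that library.

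Added together, the GI unigenes had 65.1 and 84.8 CPM in the controls, 39.9 and 53.3 CPM after 2 h and 196 and 212 CPM after 12 h. The log2 fold change of the sum was -0.69 at 2 h and 1.44 at 12 h, close to those of c153713_g1, which held nearly all of the counts. The share of c142108_g1 in the GI counts was 2.72% (exact 95% binomial interval 1.37 to 4.82%) and 4.16% (2.76 to 5.995%) in the controls. It was 6.59% (4.17 to 9.80%) and 3.53% (1.94 to 5.85%) after 2 h. After 12 h it was 0.432% (0.140 to 1.005%) and 0.286% (0.0781 to 0.731%), below the intervals of the other 4 libraries.

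The FKF1 unigene had the largest change of the 4. It stood at 2.09 and 4.05 CPM in the controls, 6.22 and 6.18 CPM after 2 h and 51.8 and 55.8 CPM after 12 h. The groups did not overlap, and the order of levels ran up with hours of heat, opposite to that of LHY. The control libraries held 13 and 31 counts, and their counting intervals, 1.11 to 3.58 and 2.75 to 5.75 CPM, overlapped. The log2 fold change was 0.98 (SE 0.30) at 2 h, just under the 2-fold limit used for calls, and 4.09 (SE 0.27) at 12 h. In summed counts the level after 12 h was 17.0-fold that of controls (95% counting interval 12.5 to 23.6). Without control replicate 2 the log2 fold change at 2 h was 1.54, and without control replicate 1 it was 0.59.

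**Figure D1:**
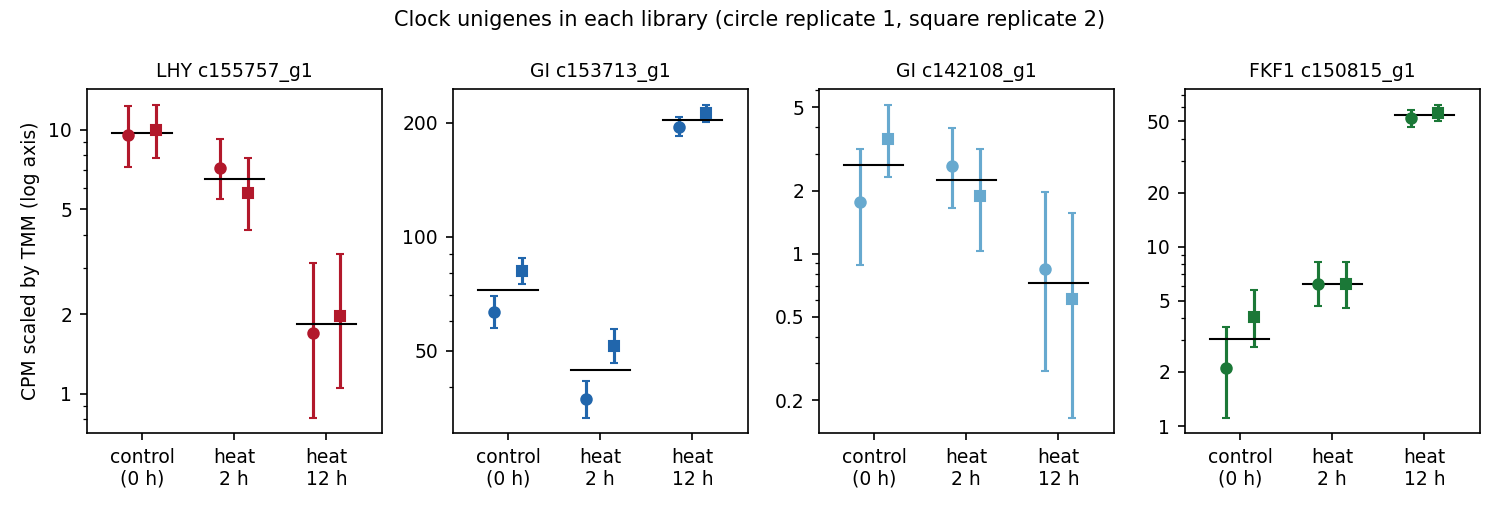
CPM scaled by TMM (log axis, a different range in each panel) of the 4 clock unigenes in the control, heat 2 h and heat 12 h libraries. Circles and squares are replicates 1 and 2 with 95% exact counting intervals, and horizontal lines are group means. FKF1 stood at 51.8 and 55.8 CPM after 12 h, against 2.09 and 4.05 CPM in controls, while LHY stood at 1.69 and 1.98 CPM, against 9.50 and 9.93 CPM.

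Read against all unigenes tested, the changes at 12 h fell in a busy comparison. By the rule used for all unigenes (edgeR's quasi-likelihood test, with a minimum fold of 2 and a largest adjusted p of 0.05), 2 of the 4 clock unigenes were called higher and 2 lower after 12 h, where 48.6% of all unigenes were called. Nothing is read from that count, since the 4 were chosen on this contrast. Between 12 h and 2 h the counts were the same, where 35.8% of all unigenes were called. There 1 was called lower instead of 2 with DESeq2, with no filter beyond 1 count, and without heat 2 h replicate 1, heat 12 h replicate 1 or heat 12 h replicate 2. None of the 4 was called at 2 h by edgeR, also with an unadjusted p and with DESeq2, where 24.1% of all unigenes were called. At 12 h DESeq2 called 2 higher and 1 lower. Leaving out control replicate 2 gave 1 call higher at 2 h, FKF1, and 1 lower instead of 2 at 12 h, and leaving out heat 12 h replicate 2 also gave 1 lower at 12 h. Scaling by library totals alone called FKF1 higher at 2 h as well. Libraries did not overlap between groups for 3 of the 4 at 2 h, where 66.4% of all unigenes did not overlap, and for all 4 at 12 h, where 82.5% did not. Between 12 h and 2 h all 4 were apart too, as were 73.4% of all unigenes. Of all unigenes tested, 6.36% had a higher log2 fold change at 12 h than FKF1, 20.3% a higher one than GI c153713_g1, 8.59% a lower one than LHY and 13.1% a lower one than GI c142108_g1. Between 12 h and 2 h, 3.18% were higher than FKF1 and 5.56% higher than GI c153713_g1.

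**Figure D2:**
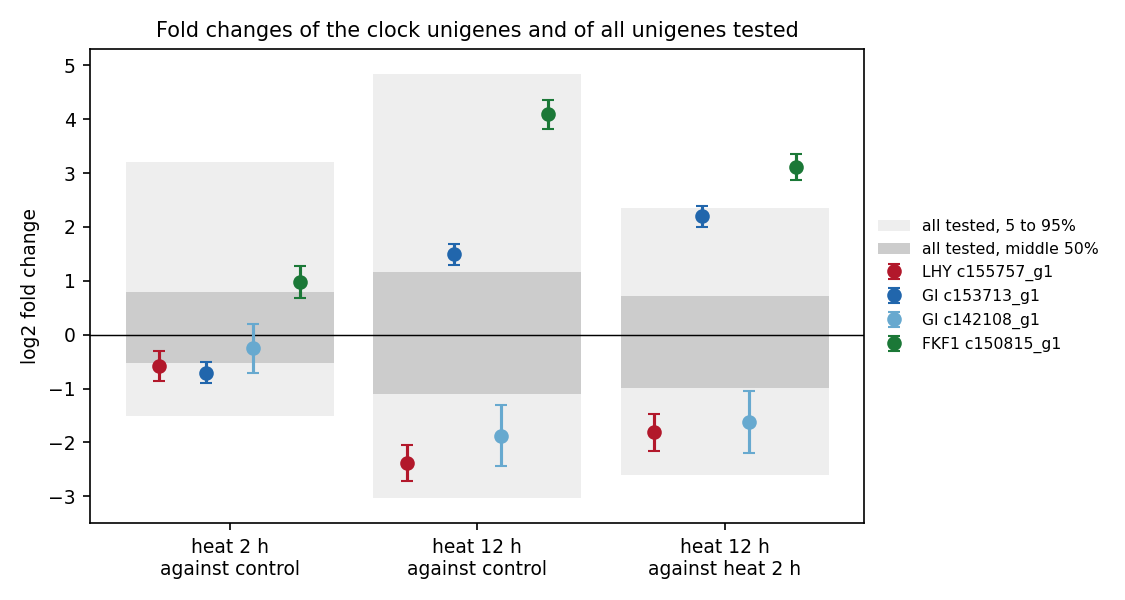
Log2 fold changes (vertical axis) of the 4 clock unigenes in the 3 comparisons, as points with their SE. Grey bars span the middle 50% and the 5 to 95% range of the 28005 unigenes tested. At 12 h FKF1 reached 4.09 and LHY -2.39, both inside the 5 to 95% range of all unigenes.

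A ratio between unigenes of one library does not depend on how libraries are scaled to each other. It is compared here across libraries only, since unigene lengths were not used. The log2 ratio of GI c153713_g1 to LHY was 2.73 and 3.02 in the controls, 2.37 and 3.14 after 2 h and 6.78 and 6.69 after 12 h. Both unigenes were lower at 2 h, and their ratio there spanned that of the controls. At 12 h the ratio was 3.86 log2 units above the controls. The log2 ratio of FKF1 to LHY was -2.14 and -1.28 in the controls, -0.20 and 0.10 after 2 h and 4.87 and 4.77 after 12 h. Its mean was 1.66 log2 units above the controls at 2 h and 6.53 at 12 h, and the groups did not overlap at either time. For GI c142108_g1 the log2 ratio to LHY was -2.37 and -1.48 in the controls, -1.43 and -1.58 after 2 h and -0.93 and -1.58 after 12 h, and all 3 groups overlapped. The log2 ratio of GI c153713_g1 to GI c142108_g1 was 5.10 and 4.50 in the controls, 3.80 and 4.73 after 2 h and 7.71 and 8.27 after 12 h.

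**Figure D3:**
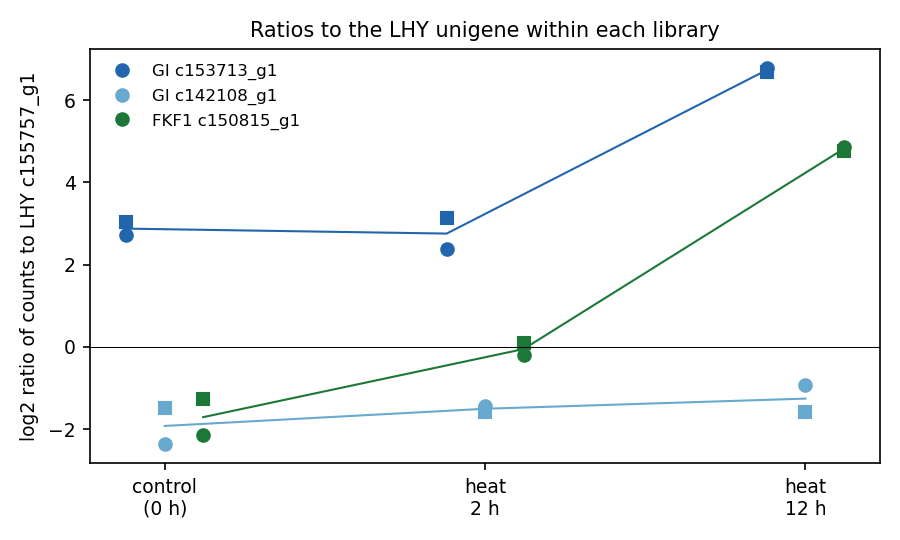
Log2 ratio of counts (vertical axis) of each GI unigene and of FKF1 to LHY within each library. Circles and squares are replicates 1 and 2, and lines join the group means. The GI c153713_g1 ratio was 2.37 and 3.14 after 2 h, around the control values of 2.73 and 3.02, and 6.78 and 6.69 after 12 h.

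The likeness of patterns was measured as the root mean square difference of log2 CPM, each unigene centred on its own mean, over the 6 libraries. Before taking logs 1 CPM was added, more than the level of GI c142108_g1 after 12 h (0.847 and 0.608 CPM). The addition flattens the fall of GI c142108_g1 and of LHY more than that of more abundant unigenes. Distances from these 2 unigenes therefore depend partly on it. LHY and GI c142108_g1 were the closest of the 6 pairs among the clock unigenes, at 0.418, followed by GI c153713_g1 and FKF1 at 0.974. LHY and FKF1 lay farthest apart, at 2.44. Among 810 unigenes with a name in the tables used and a mean of at least 10 CPM, the pattern closest to LHY was that of PSAO c133500_g3, a photosystem I subunit and one of the leaf markers, at 0.0897. A SAUR-like unigene, c140248_g1, followed at 0.151 and PIF3 c155477_g1, a bHLH factor that binds phytochrome, at 0.156. The LHY unigene and 3 of the 4 leaf markers were lower than in controls at both heat times, and the part of the leaf markers' change in the LHY result was not tested. The patterns closest to GI c153713_g1 were those of an F-box unigene, c154452_g2, at 0.150, the plastid pyruvate kinase PKp3 at 0.178 and CYP707A1, an abscisic acid 8'-hydroxylase, at 0.204. CYP707A1 averaged 56.0 CPM in controls, 28.7 CPM after 2 h and 121 CPM after 12 h, the same order as GI c153713_g1. GI c142108_g1 was closest to a chloroplast unigene of unknown function, c144209_g1, at 0.114, the brassinosteroid signalling kinase BSK1 at 0.172 and the kelch unigene c149639_g1 at 0.177. For FKF1 the closest was a glycine-rich unigene, c146623_g1, at 0.274, which averaged 8.97 CPM in controls, 15.4 CPM after 2 h and 101 CPM after 12 h. A RING/U-box unigene, c147524_g1, and a protein kinase, c153094_g1, followed at 0.356 and 0.357.

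Around the clock, 17 unigenes of light signalling were taken from the study's tables. Those tables hold unigenes chosen as changed on these libraries, so the counts that follow are not independent evidence. At 12 h, 6 of the 17 rose and 9 fell, where 25.3% of all unigenes rose and 23.3% fell. The median log2 fold change was -1.42 over the 17, against 6.4e-05 over all unigenes. At 2 h, 1 rose and 3 fell, where 15.1% of all unigenes rose and 8.98% fell, with medians of -0.52 and 0.05. The count at 2 h was 7 without heat 2 h replicate 2. The adjusted p-values below are from edgeR's quasi-likelihood test over all 28005 unigenes, and roles are those known from Arabidopsis.

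The unigene c147356_g1, matched to AT1G01520, is a MYB-like member of the same family as LHY. Like the LHY unigene it was lower at each later time, averaging 46.9 CPM in controls, 28.9 CPM after 2 h and 3.44 CPM after 12 h. It fell at 12 h (log2 fold change -3.76, adjusted p = 6.14e-08), while its value at 2 h, -0.70, was under the 2-fold limit. PHYA, the phytochrome that senses far-red light, fell at both times. Its log2 fold change was -2.51 at 2 h and -3.93 at 12 h (adjusted p = 0.000938 and 6.53e-05). The phytochrome phosphatase PAPP2C and the Mediator subunit PFT1 fell at 12 h, at -3.19 and -3.71 (adjusted p = 5.59e-07 and 9.89e-05). PFT1 had only 3 and 2 counts in the 12 h libraries. PKS2, a phytochrome kinase substrate, fell at 12 h, at -1.42. Unigenes with the same name did not always move together. CRY2 c155297_g1, a blue-light receptor, rose at 2 h to 116 CPM, against 36.9 CPM in controls (adjusted p = 1.57e-05), and had 51.5 CPM at 12 h, not called. CRY2 c140898_g1 fell at 12 h, with a log2 fold change of -1.82. Of 3 PIF3 unigenes, c155477_g1 and c150251_g2 fell at 12 h, at -2.25 and -1.45, whereas c149241_g1 rose, at 1.47.

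The light signalling unigenes that rose at 12 h, as GI c153713_g1 and FKF1 were higher, included STO c140231_g1, a B-box protein that dampens light responses. It averaged 39.3 CPM after 12 h, against 7.43 CPM in controls (log2 fold change 2.38, adjusted p = 4.96e-05). The CONSTANS-like zinc finger unigene matched to AT1G28050 rose with a log2 fold change of 2.12 (adjusted p = 1.61e-06). The F-box protein of phytochrome A signalling EID1, the kelch F-box protein AFR and the DNA-binding factor GT-1 rose with log2 fold changes of 1.24, 1.87 and 1.09. ARR4, a response regulator that interacts with phytochrome B, fell at both times, at -2.33 and -2.78. AT1G30440, of the family of the phototropism protein NPH3, fell at 2 h, at -1.27, and was not called at 12 h, at -0.85.

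FKF1 is a kelch F-box protein, and a list of 15 other unigenes with kelch repeats was taken from the same tables, so its counts are not independent evidence either. AFR, described above with light signalling, is not among the 15. At 12 h, 7 of the 15 rose and 8 fell, where 25.3% of all unigenes rose and 23.3% fell. Among the 7 is c144214_g1, with 10 counts in the controls, 17 after 2 h and 56 after 12 h. It passed the filter only through the 12 h libraries, so nothing is read from its call. At 2 h, 2 rose and 2 fell, where 15.1% of all unigenes rose and 8.98% fell. The median log2 fold change of the 15 was -1.04 at 12 h and 0.05 at 2 h, against 6.4e-05 and 0.05 over all unigenes. The unigene c130444_g1, matched to AT2G02870, rose to 21.6 CPM after 2 h and 39.6 CPM after 12 h, against 2.10 CPM in controls (adjusted p = 9.06e-06 and 4.68e-07). Its log2 fold change at 12 h, 4.27 (SE 0.32), lay within the SE of that of FKF1. HWS, a kelch F-box protein of leaf shape and floral organ separation, fell at both times. Its log2 fold change was -2.11 at 2 h and -4.42 at 12 h (adjusted p = 0.000533 and 5.86e-06), with only 2 and 8 counts in the 12 h libraries. The unigene c142393_g2 fell at 2 h, at -1.72 (adjusted p = 2.04e-05). It was also called lower at 12 h, averaging 166 CPM, against 366 CPM in controls. At 12 h c110693_g1 rose, at a log2 fold change of 2.00, and c151229_g1 fell, at -1.81. At 2 h c151937_g1 was at -0.92, under the 2-fold limit. It was called lower at 12 h, averaging 65.8 CPM, against 146 CPM in controls.

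A list of 8 unigenes named for genes known in Arabidopsis as outputs of the clock came from the same tables, with the same limit. Of these, 7 passed the filter on low counts, and LHCB1.3 c88020_g1 did not, with 0 to 13 counts per library. At 2 h 6 of the 7 fell and none rose by edgeR's test, also with an unadjusted p and with DESeq2, where 8.98% of all unigenes fell and 15.1% rose. At 12 h 5 fell and 1 rose, where 23.3% of all unigenes fell and 25.3% rose. The 1 that rose, LHCB1.3 c138665_g1, had 1 count in the controls, 4 after 2 h and 218 after 12 h. It passed the filter only through the 12 h libraries, so nothing is read from its call there. LHCB1.3 c166098_g1, counted among those that fell at both times, had 176 counts in the controls, 11 after 2 h and 12 after 12 h. It passed the filter only through the control libraries, so nothing is read from its calls either. The counts and medians of the 7 include both of these LHCB1.3 unigenes. The median log2 fold change of the 7 was -1.34 at 2 h and -1.38 at 12 h, against 0.05 and 6.4e-05 over all unigenes. The starch enzymes GBSS1, a granule-bound starch synthase, and GWD1, which phosphorylates starch for its breakdown at night, fell at 2 h with log2 fold changes of -1.34 and -1.26 (adjusted p = 0.000166 and 7.66e-05) and at 12 h with -1.10 and -1.38. CAT3, the evening-phased catalase of Arabidopsis, fell at both times, at -1.77 and -2.81 (adjusted p = 8.17e-05 and 1.58e-06), while GI c153713_g1 was higher at 12 h. Unigenes named LHCB1.3, a light-harvesting protein, differed among themselves. At 2 h c150075_g2 and c109639_g1 fell, at -1.38 and -1.07, and c150075_g2 also fell at 12 h, at -2.18. At 12 h c109639_g1 was not called, at -0.19. For c138665_g1 the counts were 111 and 107 after 12 h, against 1 and 0 in controls, and no fold is given because of its limit at the filter.

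**Figure D4:**
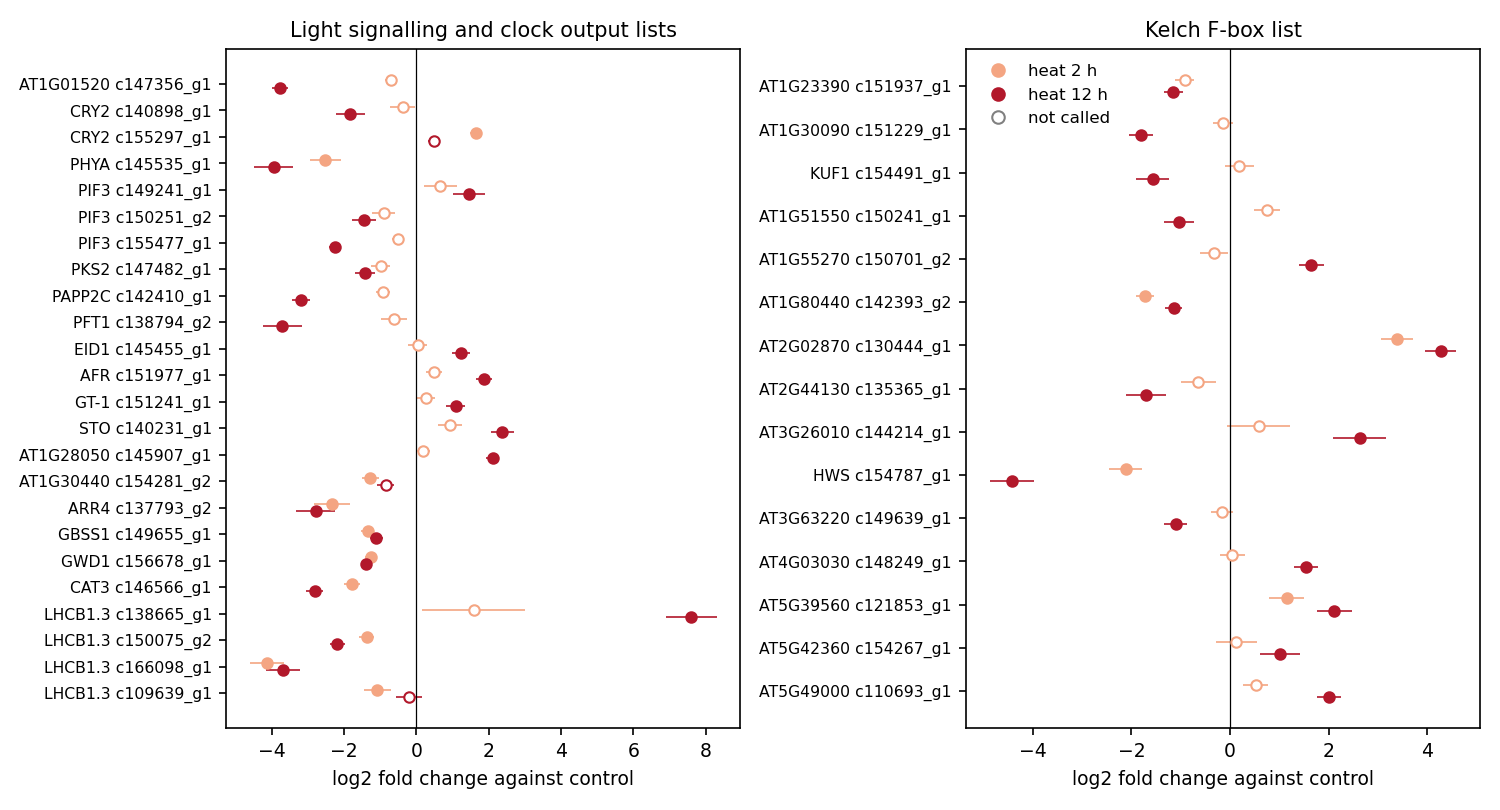
Log2 fold change against control (horizontal axis, with SE) of the light signalling and clock output unigenes (left) and of the kelch list (right), after 2 h (light points) and 12 h (dark points) of heat. Filled points were called by edgeR and open points were not. At 12 h, 6 light signalling unigenes rose and 9 fell, and 7 kelch unigenes rose and 8 fell, where 25.3% of all unigenes rose and 23.3% fell. The lists come from unigenes the study chose as changed. PHYA, kelch c144214_g1 and LHCB1.3 c166098_g1 and c138665_g1 passed the filter only through the group where they were high.

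Between 12 h and 2 h of heat, 4 light signalling unigenes rose and 6 fell, where 16.2% of all unigenes rose and 19.6% fell. This comparison does not set levels against the controls, but the controls entered the filter, scaling and spread of the shared fit. The unigene c147356_g1, of the LHY family, averaged 3.44 CPM after 12 h, against 28.9 CPM after 2 h (log2 fold change -3.06, adjusted p = 1.88e-06 in edgeR). STO, AT1G28050, EID1 and AFR rose, with log2 fold changes of 1.44, 1.93, 1.20 and 1.38. In the kelch list 4 of 15 rose and 4 fell. Those that rose include c144214_g1, which passed the filter only through the 12 h libraries. Of the 7 outputs 1 rose, LHCB1.3 c138665_g1, which passed the filter only through the 12 h libraries, and 1 fell, CAT3. These values are shared with the 2 comparisons above, since the heat libraries are the same.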

How the data were processed

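Leaf RNA of 6 libraries had been sequenced by the authors, who assembled the reads with Trinity. The deposited values were read as the authors' expected counts, with no scaling between libraries. Per the paper's methods they come from RSEM, and among the tools in the submitters' processing notes are Bowtie2, TopHat2 and HTSeq, not RSEM. Counts were rounded, since 0.157% of the values were not whole. Unigenes were kept by filterByExpr (minimum count 10), which left 97.7 to 98.4% of counts. All libraries, scaled by TMM, entered one quasi-likelihood fit in edgeR 4.0.16 (R 4.3.3), 1 coefficient per group, with 3 residual degrees of freedom and a common dispersion of 0.0271. Adjusted p-values follow Benjamini and Hochberg over 28005 unigenes, and a call needed a minimum fold of 2 and an adjusted p no larger than 0.05. SE was taken as the size of the log2 fold change divided by the root of its F value. P-values measure the spread between labelled replicates. Within-library ratios added 0.5 to each count, and likeness used log2 of CPM with 1 CPM added. Tests were tried on simulated data.

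The clock unigenes and the lists were chosen with earlier results of these data known. Named are the 4 clock unigenes, every light signalling and output unigene, the 4 kelch unigenes of smallest adjusted p in each comparison with controls, and the 3 most alike unigenes for each clock unigene. The kelch unigene c144214_g1 is named for its limit at the filter. Names come from part of a table of unigenes the study called changed and from smaller tables. The fits were repeated with each library left out, a replicate block, only the 4 libraries compared, library totals alone, RLE size factors, a prior count of 2 (0.125 otherwise), every unigene with at least 1 count, both GI unigenes summed, an unadjusted p, and the Wald test in DESeq2 1.42.0.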

Additional observations from a re-analysis of the deposited data

Results flagged for a closer look

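GI c153713_g1 stood out because its log2 fold change was -0.71 at 2 h of heat and 1.49 at 12 h, with both libraries of 2 h below both controls and both libraries of 12 h above them. The difference between the 2 values is the log2 fold change between 12 h and 2 h, 2.20. No p-value is given for it, because the unigene was chosen with these levels known.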

How the results depend on the processing

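Of 315 values recomputed under an alternative, 282 stayed, 33 moved and 0 were labelled as reversed. Some calls of the clock unigenes were still gained or lost, as given above. A log2 fold change stayed if it lay within the spread between replicates. A count of calls stayed if it lay within a fixed fold of the main count, whatever that spread. By that rule 4970 calls at 2 h with DESeq2, against 6750, stayed. For the clock unigenes 1 value changed sign, that of GI c142108_g1 at 2 h without control replicate 2. With library totals alone all unigenes had a median log2 fold change of 0.20 at 2 h, -0.11 at 12 h and -0.36 between 12 h and 2 h, and calls were split into 4971 up and 1822 down at 2 h (4236 and 2514 with TMM) and 3280 up and 7327 down between 12 h and 2 h (4526 and 5502 with TMM). Under that scaling LHY was at -0.43 at 2 h, -2.50 at 12 h and -2.07 between the heat times, where GI c153713_g1 was at 1.93, GI c142108_g1 at -1.89 and FKF1 at 2.85. A prior count of 2 gave -2.24 for LHY at 12 h and, between the heat times, -1.34 for GI c142108_g1 and 3.06 for FKF1. RLE size factors and DESeq2 each gave 3.21 for FKF1 between the heat times and 1 call in the output list, in place of 2.

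With each library left out, log2 fold changes at 2 h, at 12 h and between the heat times ran from -0.74 to -0.45, -2.46 to -2.26 and -1.91 to -1.63 for LHY, from -0.98 to -0.49, 1.31 to 1.68 and 2.00 to 2.49 for GI c153713_g1, from -0.66 to 0.33, -2.27 to -1.27 and -1.84 to -1.35 for GI c142108_g1, and from 0.59 to 1.54, 3.72 to 4.67 and 3.11 to 3.20 for FKF1. Calls ran from 4 to 7 in the light signalling list at 2 h and from 1 to 3 in the output list between the heat times. A fit with a replicate block called 6340, 13283 and 9611 unigenes, against 6750, 13609 and 10028 without it, and called FKF1 higher at 2 h. The numbers do not pair the samples, as deviations of same-numbered libraries correlated at -0.05 to 0.05. Low counts limit LHY and GI c142108_g1 after 12 h, and in the lists also PHYA, PFT1, ARR4 and HWS. The number of all unigenes called moved up or down with the library left out, in each of the 3 comparisons. Calls in the kelch list at 12 h were fewer without some libraries. The shares of all unigenes called, given above for comparison, therefore belong to the fit with all libraries and are not fixed.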
